A study of Mus musculus with 6 samples.

Results

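The cytosolic ribosomal protein genes encode the protein subunits of the ribosomes that translate nuclear mRNAs. They were chosen by symbol, as Rpl and Rps genes with a number (mitochondrial ribosomal proteins and S6 kinases carry other names), together with Rplp0, Rplp1, Rplp2, Rpsa and Fau, among probe sets that the platform annotation gives to a single gene. This yielded 50 of the 18193 genes measured, 26 of the large subunit and 24 of the small subunit, each represented by whichever of its probe sets was brightest on average across the 6 arrays. A further 28 ribosomal protein symbols, Rplp1 among them, stood only on probe sets shared with other genes or pseudogenes and were left out. Arrays came from 3 miR-142 KO mice and from 3 WT littermates, all males on the C57BL/6 background at 10 weeks of age. From each spleen a T cell fraction had been enriched by removing other cells, and its RNA was amplified with oligo(dT) and random primers before hybridization to Affymetrix 1-colour arrays. The labels do not say whether miR-142 was removed from all cells or how.

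Each ribosome holds one copy of nearly every ribosomal protein, and cells make these proteins in step with ribosomal RNA. Their mRNAs begin with a run of pyrimidines, the TOP motif, through which mTORC1 and the RNA-binding protein LARP1 adjust their translation as a group. Resting T cells translate little and build many ribosomes once they are activated. Some ribosomal proteins have paralogues that are favoured in certain tissues or states and can take the place of the standard subunit. The microRNA that the KO mice lack has the following mature forms in RefSeq (GRCm38.p6, chr11:87756867-87756887 and chr11:87756903-87756925, plus strand), shown because they are the molecules removed, with the seed, bases 2 to 8, in capitals.

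mmu-miR-142a-5p: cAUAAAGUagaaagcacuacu

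mmu-miR-142a-3p: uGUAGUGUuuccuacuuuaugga

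The KO fractions differed from the WT fractions in more than genotype. Genes of T cells (10 measured markers) averaged log2 10.64, 9.40 and 10.83 in the KO arrays and 12.23, 12.23 and 12.25 in the WT arrays, and all 10 fell. All 9 neutrophil markers rose, with averages of 10.93 to 13.60 in KO and 6.26 to 7.69 in WT, as did all 8 markers of mast cells, basophils and eosinophils (10.39 to 10.98 in KO, 5.70 to 5.89 in WT) and all 6 of monocytes and macrophages (9.40 to 10.26 in KO, 6.16 to 6.63 in WT). Of 6 erythroid markers 5 rose and 1 fell, and of 6 B cell markers none passed the test. The T cell averages of the KO arrays remained above the array medians of 5.70 to 5.77. The control probe sets for 18S ribosomal RNA read 7.86, 9.15 and 9.19 in KO and 9.66, 9.47 and 9.51 in WT, and the gap between 3' and 5' Actb control probe sets, which reflects RNA integrity, was 0.32 to 0.40 in KO and 0.16 to 0.23 in WT. The part of cell composition and RNA quality in the differences below was not tested. In such bulk preparations a change in the number of cells of a type and a change in RNA per cell cannot be told apart.

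As a group the ribosomal protein genes differed little between KO and WT, and few passed the test. With rose, fell and changed standing for a limma adjusted p below 0.05 over all 45037 probe sets, 2 of the 50 rose (Rps27l and Rpl7l1), 6 fell (Rpl39l, Rps27, Rpl27a, Rps16, Rps6 and Rps25) and 42 did not pass. Of all probe sets 13.9% rose and 15.5% fell. Counted by gene, 18.6% of all genes rose and 18.6% fell, so that 37.2% were called in either direction against 16% of the ribosomal protein genes. The median KO minus WT difference of the 50 genes was -0.08 on the log2 scale, next to -0.06 over all genes, and 37 of the 50 lay within 0.2 of 0. Large subunit genes had a median of -0.07 with 1 rise and 2 falls among 26, and small subunit genes a median of -0.10 with 1 rise and 4 falls among 24. Averaged over the 50 genes, the log2 level was 12.42, 12.42 and 12.45 in the KO arrays and 12.54, 12.55 and 12.60 in the WT arrays. The KO averages lay below the WT averages without overlap, by 0.13. That step is larger than the SD of 0.02 in KO and 0.03 in WT. The average difference was -0.30 over the 14 genes with a mean level under 13 and -0.07 over the other 36.

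**Figure D1:**
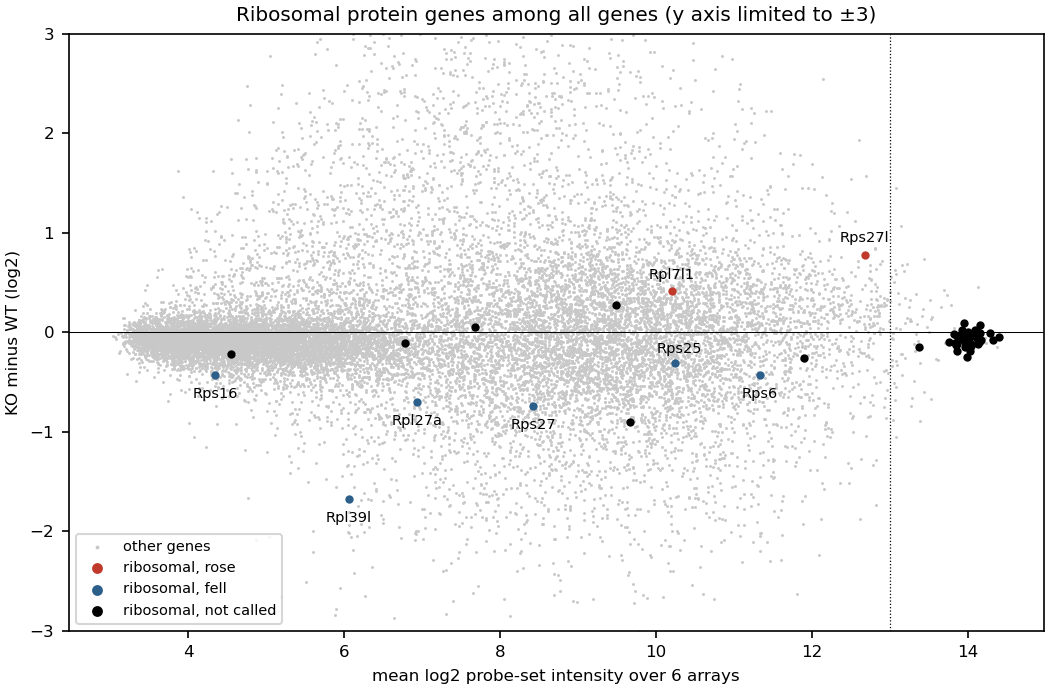
Difference between KO and WT (log2, y axis, cropped at ±3) against the mean log2 intensity over 6 arrays (x axis) for each gene at its brightest probe set. Grey points are other genes, red and blue points the 2 ribosomal protein genes that rose and the 6 that fell, and black points the 42 that did not pass; the dotted line marks a level of 13, beyond which 36 ribosomal protein genes lie close to 0.

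At the probe sets that represent the genes, level separated them into a bright group with small differences and a smaller group that held every call. Of 30 other probe sets of these genes with a mean of at least 13, 2 were called. With the limit of 13 chosen after seeing the values, 36 of the 50 genes had a mean of at least 13, on arrays whose highest values were 14.42 to 14.47. Of these 36 genes 0 passed the limma test, while 3 had an unadjusted p below 0.05. Their differences ran from -0.25 to 0.09. Among the 14 genes under 13, 2 rose and 6 fell, against 18.6% and 18.6% of all genes under 13, and differences ran from -1.67 to 0.78. Other genes of the bright range did pass: of 77 with a mean of at least 13, 23.4% rose and 19.5% fell, with differences from -1.05 to 1.45. These 77 were not matched in level to the 36, which averaged 13.98 in KO and 14.05 in WT. Compression of the signal near the top of the scale was not tested.

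Small as they were, the differences of the bright genes mostly had one sign. In 31 of the 50 genes every KO array lay below every WT array, and in 4 every KO array lay above, against 29.7% and 24.1% of all genes and 27.4% and 18.5% of all probe sets. Within the 36 bright genes these counts were 23 and 2, against 37.7% below and 37.7% above among the 77 other bright genes. The average of the 36 bright genes was 13.97, 13.99 and 13.98 in the KO arrays and 14.04, 14.05 and 14.06 in the WT arrays. The step of 0.07 exceeded the SD of 0.01 within either group, and it amounts to a few percent in intensity. Its direction depended on the scaling. When each array was scaled to the 18 hybridization control probe sets, bacterial transcripts added in fixed amounts, the median of all probe sets moved by 0.37, from -0.08 as deposited to 0.29, and that of the ribosomal protein genes from -0.08 to 0.29 with it. Under that scaling 19 of the 50 genes rose and 1 fell, where 42.8% of all genes rose and 7.22% fell. Relative to the median of all probe sets, the ribosomal protein genes stood at -0.003 as deposited. That value is the same under control scaling by construction, since the scaling shifts all probe sets of an array alike. By gene, the deposited medians were -0.08 for the ribosomal protein genes and -0.06 for all genes. They were -0.07 for the 36 bright ribosomal protein genes and 0.02 for the 77 other bright genes.

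**Figure D2:**
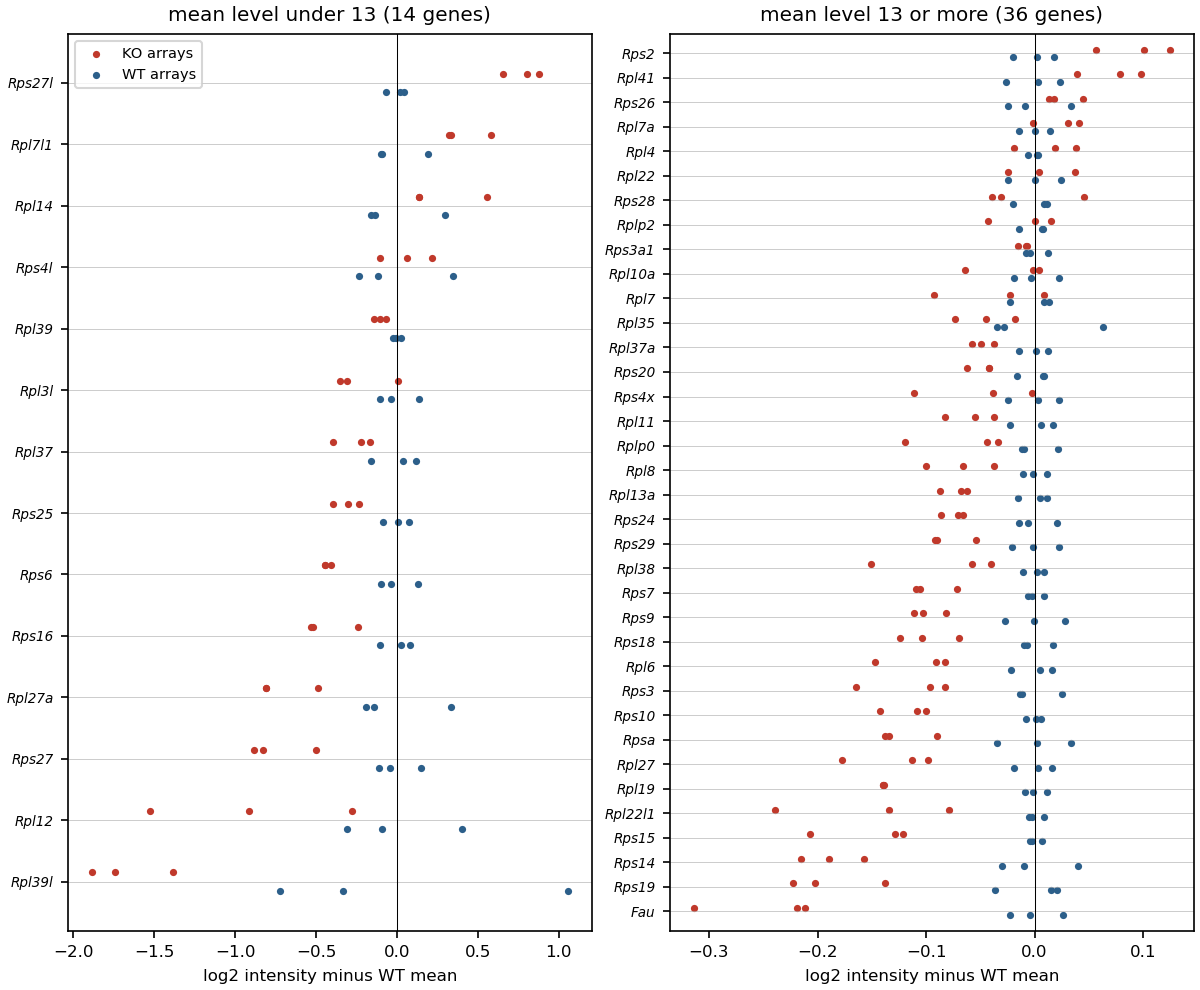
Log2 intensity of each array minus the WT mean of the gene (x axis, different ranges in the panels), for 14 genes with a mean level under 13 (left) and 36 at 13 or more (right), in order of the difference. Red points are the 3 KO arrays, drawn above the blue points of the 3 WT arrays; most bright genes have their KO points to the left of the WT points by less than 0.2.

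Rps27l and Rps27, which encode paralogous forms of the same small subunit protein, changed in opposite directions at the probe sets that represent them. Rps27l is known as a target gene of p53. Its log2 intensity was 12.94, 13.16 and 13.09 in the KO arrays and 12.22, 12.30 and 12.33 in the WT arrays. The groups were far apart, and Rps27l rose 1.72-fold (difference 0.78 ± 0.09, SE, n = 3 per group; limma adjusted p = 0.00083). Its other probe sets, which carry the suffix for possible cross-hybridization, rose by 0.84 and 0.95. Rps27, the standard form, read 7.91, 7.97 and 8.29 in KO and 8.75, 8.94 and 8.68 in WT. Its only probe set given to a single gene averaged 8.42, while 36 ribosomal protein genes averaged 13 or more. Whether that probe set reports the main Rps27 mRNA was not tested. The KO values lay below the WT values without overlap, and Rps27 fell by 0.74 ± 0.13 (limma adjusted p = 0.0048). The log2 ratio of Rps27l to Rps27 signal was higher by 1.52 in KO, at 5.03, 5.20 and 4.80 in KO and 3.47, 3.36 and 3.65 in WT. Only this change of the ratio can be read, since levels of different probe sets are not comparable. The rise of Rps27l held under each of the 16 alternatives, from 0.70 to 1.15. The fall of Rps27 held under 15 of the 16, and under hybridization-control scaling its difference of -0.37 missed the threshold (limma adjusted p = 0.093).

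Start sites of genes that rose, fell or did not pass the test are shown to let the TOP feature be compared between them. Each line runs from 30 bases before the annotated RefSeq start to 15 after it (GRCm38.p6), and capitals mark the longest run of C and T letters that touches the 5 bases on either side of the start. Of the 2 annotated starts of Rps27l, the one with the longer run is shown. Rps27l (chr9:66946056-66946100, plus strand) rose, Rps27 (chr3:90213634-90213678, minus strand) and Rps6 (chr4:86857353-86857397, minus strand) fell, Rplp2 (chr7:141447621-141447665, plus strand) did not pass, and Rpl7l1 (chr17:46782642-46782686, minus strand) rose.

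Rps27l: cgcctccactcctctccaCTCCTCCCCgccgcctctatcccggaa

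Rps27: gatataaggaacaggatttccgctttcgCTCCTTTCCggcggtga

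Rps6: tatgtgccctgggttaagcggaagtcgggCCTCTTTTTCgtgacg

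Rplp2: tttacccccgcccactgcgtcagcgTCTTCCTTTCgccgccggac

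Rpl7l1: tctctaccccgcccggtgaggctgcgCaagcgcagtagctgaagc

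The runs of Rps27 (9 pyrimidines), Rps6 and Rplp2 (10 each) cross the annotated start. That of Rps27l, also of 9, ends before the start and so lies outside the annotated transcript, and the run at its other start has 4. No run near the Rpl7l1 start is longer than 1 letter. The marked C lies before the start and is the first of equal runs, another of which is the C at the start. RefSeq promoters were found for 44 of the 50 genes, with 52 annotated starts. A run of at least 8 was present at 36.5% of these starts, against 9.38% of all 32851 promoters in the table. The letters CCGGAAG, the core bound by ETS factors, were found on either strand within the 300 bases at 40.4% of the starts and 8.86% of all promoters, and AAGATGGC, a YY1 motif, at 9.62% and 2.75%. By gene, the run was present at a start of 19 of the 44, of which 1 rose and 3 fell, and absent in 25, of which 1 rose and 3 fell as well. The starts are those of the annotation. A run was counted if it touched the 5 bases on either side of the start, and a run further away was not. The gene with a run that rose is Rps27l, whose run lies outside the annotated transcript.

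Rpl7l1, a paralogue of Rpl7, was the other gene that rose. It read 10.31, 10.33 and 10.57 in the KO arrays and 9.89, 9.90 and 10.18 in the WT arrays. The highest WT array came close to the lowest KO array, and the rise was 1.33-fold (0.41 ± 0.12, SE, n = 3 per group; limma adjusted p = 0.039). Of its other probe sets 1 rose by 0.41 as well and 1 differed by 0.14. The call was lost when KO replicate 1 or 3 or WT replicate 1 or 2 was left out (limma adjusted p from 0.057 to 0.128). Rpl7 itself, at 13.79, 13.89 and 13.86 in KO and 13.89, 13.90 and 13.86 in WT, differed by -0.04 ± 0.08 (limma adjusted p = 0.773).

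Rpl39l, a paralogue of Rpl39 best known from the testis, had the largest fall of the 50. Its values were 5.51, 5.15 and 5.01 in KO and 6.56, 6.17 and 7.95 in WT. WT replicate 3 stood high, and without it the fall was 1.14 in place of 1.67 ± 0.42 (limma adjusted p = 0.022). The KO values lay under the level of 5.77 that is the median of all probe sets, and the call was lost without KO replicate 3 (limma adjusted p = 0.069). Rpl39, which lines the exit tunnel of the ribosome, read 6.72, 6.68 and 6.76 in KO and 6.85, 6.82 and 6.80 in WT. These groups did not overlap, but the difference of -0.10 ± 0.08 missed the threshold (limma adjusted p = 0.364).

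Rps6, the small subunit protein that S6 kinases phosphorylate downstream of mTORC1, fell. Its values were 11.11, 11.14 and 11.11 in the KO arrays and 11.45, 11.52 and 11.68 in the WT arrays. The KO values were nearly equal and all lay below WT, with a fall of 0.43 ± 0.09 (SE, n = 3 per group; limma adjusted p = 0.010). The call stood when any 1 array was left out, and under hybridization-control scaling the difference was -0.07 and missed the threshold (limma adjusted p = 0.655). A second probe set, dim at 4.83, differed by -0.23 (limma adjusted p = 0.137).

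Rpl27a, whose mutation in mice activates p53, read 6.48, 6.47 and 6.79 in KO and 7.62, 7.09 and 7.14 in WT. WT replicate 1 was the highest and the groups did not overlap. The fall was 0.70 ± 0.17 (limma adjusted p = 0.017), and it was 0.65 without KO replicate 1, which ended the call (limma adjusted p = 0.053). The call was also lost without WT replicate 1 and KO replicate 2 together (-0.48, limma adjusted p = 0.055) and under hybridization-control scaling (-0.34, limma adjusted p = 0.108). Rps25, a small subunit protein needed for translation from some internal ribosome entry sites, read 10.10, 10.01 and 10.16 in KO and 10.31, 10.48 and 10.41 in WT. It fell by 0.31 ± 0.09 (limma adjusted p = 0.037), a call that was lost when any 1 of the 6 arrays was left out (limma adjusted p from 0.053 to 0.125), with the replicate number as a block (limma adjusted p = 0.101), and with array medians set equal (limma adjusted p = 0.052). Under hybridization-control scaling its sign turned, to 0.06.

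Rps16, another small subunit gene, was dim. Its values were 4.04, 4.32 and 4.03 in KO and 4.59, 4.64 and 4.45 in WT, all under the median of 5.77. The fall of 0.43 ± 0.11 (limma adjusted p = 0.024) was thus measured near the floor of the scale, and it was lost without KO replicate 1 or 3 or WT replicate 1 or 2 (limma adjusted p from 0.072 to 0.087). Under hybridization-control scaling the difference was -0.07 (limma adjusted p = 0.674). The Rps16, Rps27, Rpl27a, Rps25, Rps6 and Rpl39l calls each rest on a single probe set with no second probe set passing the test. These probe sets averaged 4.35, 8.42, 6.93, 10.24, 11.33 and 6.06, all under 13. Whether they report the main mRNA of each gene was not tested.

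**Figure D3:**
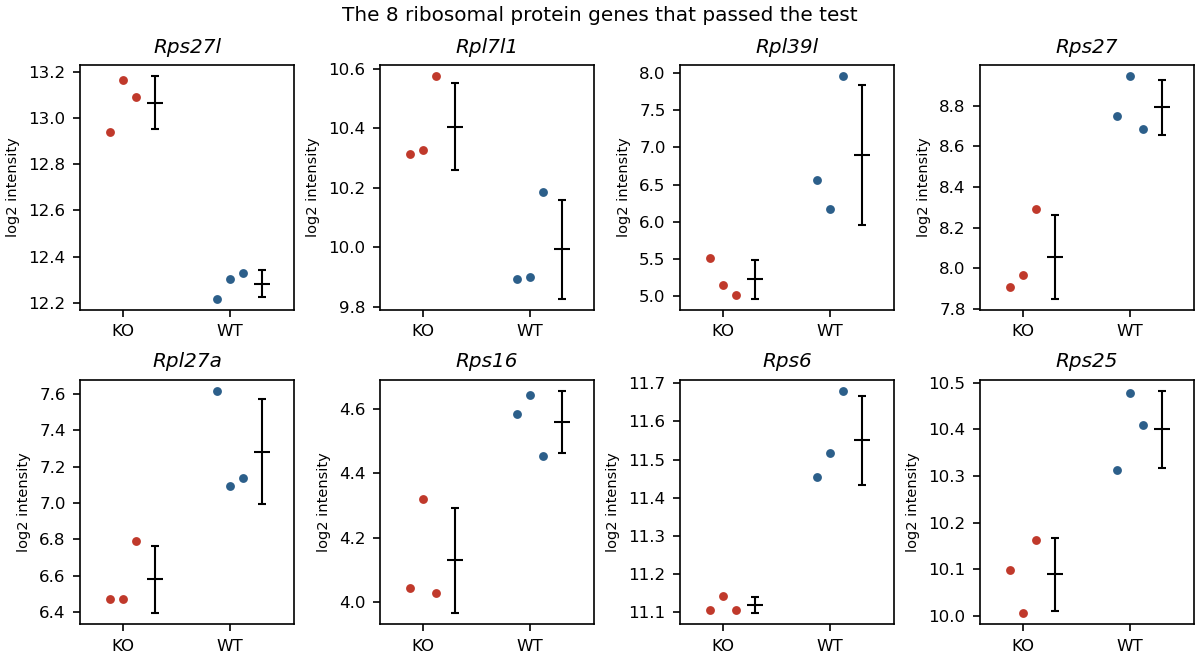
Log2 intensity (y axis, a different range in each panel, not starting at 0) of the 8 ribosomal protein genes that passed the test. Red points are the 3 KO arrays and blue points the 3 WT arrays, with the mean and SD beside them; no gene shows overlap between KO and WT.

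Rpl22, which mice need for the development of alpha beta T cells, did not pass the test. It read 13.97, 14.04 and 14.00 in KO and 13.97, 14.00 and 14.02 in WT. The groups overlapped, with a difference of 0.01 ± 0.08 (SE, n = 3 per group; limma adjusted p = 0.963). Its paralogue Rpl22l1 read 13.32, 13.37 and 13.21 in KO and 13.45, 13.45 and 13.46 in WT. Its KO values lay below WT, but the difference of -0.15 ± 0.08 did not pass (limma adjusted p = 0.220). Rps4l differed by 0.06 ± 0.17 and its relative Rps4x by -0.05 ± 0.08, both with overlapping groups. Rpl3l, a paralogue found in heart and skeletal muscle, was dim, at 4.34, 4.30 and 4.66 in KO and 4.55, 4.62 and 4.79 in WT, and differed by -0.22 ± 0.12 (limma adjusted p = 0.240).

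The proteins of the stalk, which recruits elongation factors to the large subunit, were represented by Rplp0 and Rplp2. Rplp0 read 14.05, 14.14 and 14.13 in KO and 14.16, 14.16 and 14.20 in WT, a difference of -0.07 ± 0.08 (limma adjusted p = 0.572). Rplp2 read 14.29, 14.31 and 14.25 in KO and 14.30, 14.28 and 14.30 in WT, a difference of -0.01 ± 0.08 (limma adjusted p = 0.941). Neither stalk gene passed, and for Rplp2 the groups overlapped.

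Fau, which is translated as a ubiquitin-like protein fused to a small subunit protein, came nearest to a call among the bright genes. It read 13.90, 13.80 and 13.89 in the KO arrays and 14.09, 14.14 and 14.11 in the WT arrays. All KO values lay below WT, and the difference was -0.25 ± 0.08 (limma adjusted p = 0.053). It passed under 4 of the alternatives, with limma adjusted p = 0.0043 for an intensity trend and robust fitting, 0.027 for the mean of probe sets, 0.039 after a filter on dim probe sets and 0.048 with array weights. With trend and robust fitting 11 ribosomal protein genes fell and 2 rose, next to 18.4% and 18.7% of all genes, since Fau, Rps14, Rps15, Rps19 and Rpl19 were called as well. Rpsa, also known as the laminin receptor precursor, read 14.11, 14.06 and 14.06 in KO and 14.16, 14.20 and 14.23 in WT and differed by -0.12 ± 0.08 (limma adjusted p = 0.290).

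An incomplete list of genes mutated in Diamond-Blackfan anaemia, a human failure of red cell production, held 9 of the 50 genes. At the probe sets that represent them, 0 of these passed the test with limma, against 37.2% of all genes, while 1 had an unadjusted p below 0.05. Rpl27 and Rps10 did fall at another of their probe sets and with the mean of probe sets, and Rps19 fell with trend and robust fitting. Rps27, which fell, and Rpl35, which did not pass, are also reported as mutated in that disease but were not on the list. The differences of the 9 listed genes ran from -0.19 for Rps19, the gene most often affected, to 0.03 for Rps26, with a median of -0.08. In 7 of the 9 every KO array lay below every WT array, against 29.7% of all genes. In 0 of the 9 every KO array lay above, against 24.1%. All 9 belong to the 36 bright ribosomal protein genes, where the counts were 23 below, 2 above and 0 calls. The values thus do not set the 9 apart from that group. Rps19 read 13.74, 13.82 and 13.76 in KO and 13.92, 13.98 and 13.97 in WT (difference -0.19 ± 0.08, limma adjusted p = 0.119). Rps14, whose loss underlies the anaemia of the human deletion of chromosome arm 5q, differed by -0.19 ± 0.08 too (limma adjusted p = 0.115). Rpl11, which binds Mdm2 and can thereby stabilize p53, differed by -0.06 ± 0.08 (limma adjusted p = 0.610). Erythroid markers averaged 9.32, 9.90 and 8.81 in KO and 6.68, 6.21 and 6.49 in WT on the same arrays.

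At the other end, Rps2 and Rpl41 were the bright genes whose KO values all lay above WT. Rps2, at the entry of the mRNA channel, read 13.96, 14.03 and 14.00 in KO and 13.88, 13.91 and 13.92 in WT (difference 0.09 ± 0.08, limma adjusted p = 0.407). Rpl41, the smallest ribosomal protein, differed by 0.07 ± 0.08 (limma adjusted p = 0.527). Rpl12, a large subunit protein next to the stalk, varied widely within the groups and read 9.20, 8.59 and 9.84 in KO and 10.02, 10.52 and 9.81 in WT. Its groups overlapped, and the difference of -0.91 ± 0.32 did not pass (limma adjusted p = 0.073).

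Of the 50 genes 24 had more than 1 probe set, and their 56 other probe sets gave 6 rises, 3 falls and 47 without a call, where 13.9% of all probe sets rose and 15.5% fell. The sign was that of the brightest probe set in 46 of the 56. For Rps20 the probe sets disagreed. Its bright probe sets, at 14.03 and 13.86, differed by -0.05 and -0.02. A dimmer Rps20 probe set read 7.19, 7.70 and 7.09 in KO and 6.78, 6.40 and 6.70 in WT and rose by 0.70 ± 0.18 (limma adjusted p = 0.023), and a second dimmer one rose by 0.76 ± 0.18 (limma adjusted p = 0.016). Rps3 showed the same kind of split, with a difference of -0.11 at its brightest probe set and a rise of 0.42 ± 0.12 at one of level 9.91. Rps10 differed by -0.12 at its brightest probe set and fell by 0.73 ± 0.21 at one of level 6.35. Rps15 and Rpl27 fell at another bright probe set, of level 13.79 and 13.18, by 0.31 ± 0.08 and 0.34 ± 0.08. Their brightest differed by -0.15 and -0.13. Which transcripts the dimmer probe sets detect was not tested, neither here nor for genes whose brightest probe set averaged under 13.

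Among other mRNAs of the TOP class, 1 rose and 2 fell of the 17 measured genes from a list of 20, against 18.6% and 18.6% of all genes. Only 1 of the 17 was called when KO replicate 1 or 3 or any 1 WT replicate was left out, and 2 without KO replicate 2. The initiation factor subunits Eif3h and Eif3f fell by 0.43 ± 0.08 (SE, n = 3 per group; limma adjusted p = 0.0054) and 0.26 ± 0.08 (limma adjusted p = 0.042), and the histone chaperone gene Nap1l1 rose by 0.28 ± 0.09 (limma adjusted p = 0.047). Their median difference was 0.02, and Eef1a1 and Tpt1, bright TOP mRNAs for an elongation factor and for the translationally controlled tumour protein, differed by 0.02 ± 0.08 and -0.07 ± 0.08.

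Of 11 measured initiation factors, which load ribosomes onto mRNA, 5 rose and 1 fell, against 18.6% and 18.6% of all genes, with a median difference of 0.18. Eif4e, which binds the mRNA cap, read 11.43, 11.75 and 11.63 in KO and 11.12, 11.13 and 11.05 in WT, and it rose by 0.50 ± 0.10 (limma adjusted p = 0.0098). Eif5b, which joins the subunits, rose by 0.49 ± 0.10 (limma adjusted p = 0.010), and Eif1a by 0.49 ± 0.11 (limma adjusted p = 0.015). The helicase genes parted: Eif4a2 fell by 0.65 ± 0.12 (limma adjusted p = 0.0062), whereas Eif4a1, which falls outside the rule for naming, rose by 0.39 ± 0.09 (limma adjusted p = 0.017).

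Among 13 measured genes of mTORC1, its S6 kinase branch and the LARP proteins, 7 rose and 1 fell, with a median of 0.32. Eif4ebp1, the repressor of Eif4e that mTORC1 switches off, had the largest rise. It read 11.00, 11.39 and 10.91 in the KO arrays and 9.28, 9.04 and 9.45 in the WT arrays, and rose 3.59-fold (1.84 ± 0.16, SE, n = 3 per group; limma adjusted p = 2.1e-04). Akt1s1, which encodes the mTORC1 inhibitor PRAS40, read 9.90, 10.15 and 9.93 in KO and 8.51, 8.43 and 8.45 in WT, and rose 2.89-fold (1.53 ± 0.10; limma adjusted p = 6.7e-05). Larp4b rose by 0.39 ± 0.09 (limma adjusted p = 0.012) and Tsc2, a brake on mTORC1, by 0.48 ± 0.12 (limma adjusted p = 0.021). Larp1 itself rose by 0.32 ± 0.09 (limma adjusted p = 0.033), and the gene that fell was Tsc1, the partner of Tsc2, by 0.36 ± 0.08 (limma adjusted p = 0.015). The rises were not confined to inhibitors, since Rheb rose by 0.36 ± 0.09 (limma adjusted p = 0.025). Mtor differed by 0.51 ± 0.17 and did not pass (limma adjusted p = 0.059). Larp1, Tsc1, Rheb and Mtor fall outside the rule for naming and were picked with their values known. The share of all genes that rose was 18.6% here too, and the lists were not tested against it. The number of genes called in this list was 3 to 7 when single arrays were left out, 3 of them without WT replicate 2, 4 without WT replicate 1, and 5 without KO replicate 3 or WT replicate 3.

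**Figure D4:**
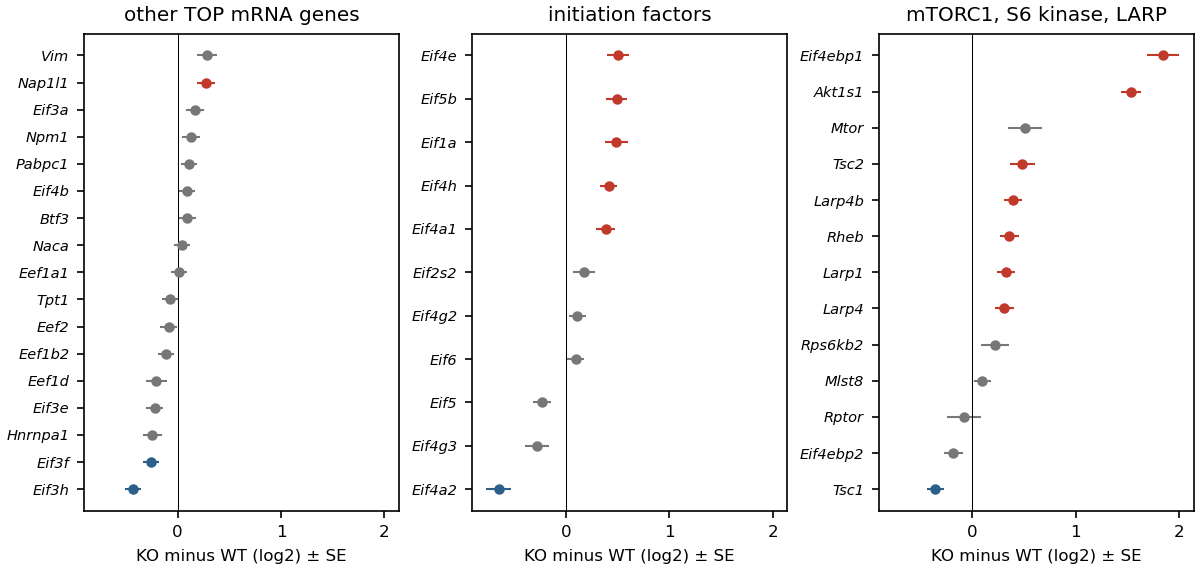
KO minus WT difference on the log2 scale (x axis, points with the moderated SE) for 17 other TOP mRNA genes, 11 initiation factors and 13 genes of mTORC1, S6 kinase and LARP proteins. Red points rose, blue points fell and grey points did not pass; Eif4ebp1 and Akt1s1 stand apart on the right at 1.84 and 1.53.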

How the data were processed

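The authors deposited log2 probe-set intensities made with RMA (version not given), per the submitters' processing notes. They were used without further scaling. After 64 array controls were set aside, 45037 probe sets were tested. The platform annotation gave 1 gene for 34945, several for 932 and none for 9160. All 50 members matched RefSeq (GRCm38.p6) by Entrez ID with 0 symbols changed, and 12 are represented by probe sets with suffix _s_at or _x_at. Sequences are from RefSeq.

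With R 4.3.3 and limma 3.58.1, a model of genotype was fitted by lmFit and eBayes, with two-sided p-values adjusted by Benjamini-Hochberg over all probe sets. Replicates are separate mice, 3 per group, and the small number of arrays limits precision. RMA values carry no detection calls. The members and lists were chosen with earlier results of these data known. All members may be named; values per array were given to the 6 largest rises and falls past the threshold, stalk genes, Rps6, Rpsa, Fau and paralogue pairs, and to other members after their values were seen. Up to 4 called genes were named by rule in other lists, and a few further genes after their values were seen. The fit was tested on simulated data. Columns left unused numbered 0. Rps27a, Rpl3, Rpl10 and other genes on shared probe sets were not analysed here.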

Additional observations from a re-analysis of the deposited data

How the results depend on the processing

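With 3 arrays per group, each call of a small difference is open to the choice of array and scaling. Under hybridization-control scaling 19 ribosomal protein genes rose and 1 fell, and their median turned to 0.29. Of the 17 other TOP genes 9 were called there, where 42.8% of all genes rose and 7.22% fell. Differences turned sign there for Fau (0.12), Rpl22l1 (0.22), Rpl39 (0.26), Rpl3l (0.15), Rpl7 (0.33), Rplp0 (0.30), Rplp2 (0.36), Rps25 (0.055), Rps4x (0.32) and Rpsa (0.25). That scaling raised the KO arrays against WT. Its control probe sets averaged 9.80 to 9.91 in KO and 10.10 to 10.30 in WT. The counts of ribosomal falls were 11 with trend and robust fitting, 10 with the mean of probe sets and 3 with a 1.5-fold minimum, with 1 rise under that minimum. Without WT replicate 1 and KO replicate 2 together, 1 rose and 3 fell. Leaving out each array gave 1 to 2 rises, 3 to 5 falls and a median of -0.087 to -0.080; 1 rose without KO replicate 1 or 3 or WT replicate 1 or 2, and 3 fell without KO replicate 1. The median was -0.057 after repeated quantile normalization. Other TOP genes called numbered 1 with median centring, 6 with trend and robust fitting, 5 with array weights, 6 at an adjusted p below 0.10, 0 with the 1.5-fold minimum, and 1 to 2 when single arrays were left out (1 without KO replicate 1 or 3 or any WT replicate, and 1 without WT replicate 1 and KO replicate 2). Of all 45037 probe sets 12639 were called with median centring and 13234 with trend and robust fitting. The number was 14572 with array weights and 16644 at an adjusted p below 0.10. At the 1.5-fold minimum 2 mTORC1, S6 kinase and LARP genes, 1 initiation factor (4 to 6 over single arrays left out) and 8307 of the 13228 probe sets were called, and 3 mTORC1, S6 kinase and LARP genes without WT replicate 1 and KO replicate 2. Leaving out single arrays gave 9410 to 12350 probe sets and 3 to 7 mTORC1, S6 kinase and LARP genes.

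Uncalled differences near 0 changed sign elsewhere too. Rpl22 gave -0.022 with WT replicate 1 and KO replicate 2 left out and -0.016 at its brightest probe set without the suffix _s_at or _x_at, with -0.010 to 0.021 over single arrays. Rplp2 gave 0.00050 after repeated quantile normalization, 0.011 with median centring and -0.021 to 0.0075 over single arrays left out. Rps4l gave -0.049 after repeated quantile normalization, -0.059 without WT replicate 1 and KO replicate 2, and -0.058 to 0.23 over single arrays. Rpsa gave 0.025 as the mean of its probe sets. Causes were not tested.

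KO and WT samples share replicate numbers. Deviations of same-numbered arrays correlated at 0.10, -0.24 and -0.20, and those of differently numbered arrays at -0.16 to 0.27. With 3 arrays per group these values cannot settle whether the numbers pair the mice. With the replicate number as a block 2 ribosomal protein genes rose and 5 fell, 1 other TOP gene and 5 mTORC1, S6 kinase and LARP genes were called. Of all 45037 probe sets 10413 were called under that model.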

Other observations

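Probe sets that the annotation gives to several genes, with a ribosomal protein symbol among them, numbered 110, of which 79 had a mean level of 13 or more. Of these 110, 0 rose and 10 fell by limma, against 13.9% and 15.5% of all probe sets, with a median difference of -0.06 and a range from -1.60 to 0.45. In 49 of them every KO array lay below every WT array, and in 7 every KO array lay above, against 27.4% and 18.5% of all probe sets. They belong to no single gene and are not named.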
